A study of Mus musculus with 21 samples.

Results

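The genes described here are 35 nuclear genes for subunits of mitochondrial complex I, Ndufa1 to Ndufa3, Ndufa5 to Ndufa13, Ndufab1, Ndufb2 to Ndufb11, Ndufc1, Ndufc2, Ndufs1, Ndufs3 to Ndufs8 and Ndufv1 to Ndufv3, measured by RNA sequencing in the left ventricle of 21 male mice. They were chosen by symbol, and all 35 were among the 55450 genes of the count table and among the 17309 with enough counts to be tested. R403Q mice are 129S6/SvEv mice heterozygous for a missense mutation in α-myosin heavy chain (labelled Myh6+/R404Q) and model hypertrophic cardiomyopathy, and wild-type (WT) littermates were their controls. Both genotypes ate either a control diet, 5 mice in WT-CD and 7 in R403Q-CD, or the same diet with 0.15 mg/g empagliflozin, an inhibitor of the renal sodium-glucose cotransporter SGLT2, with 4 mice in R403Q-EMPA and 5 in WT-EMPA. The drug was started at 9 to 10 weeks of age. The study's methods place the RNA at 12 weeks of age after 2 weeks of drug, whereas the labels give 16 weeks of treatment, and the study's own RNA comparisons do not cover WT-EMPA. The mutation is a base change in the gene's own locus, so counts of Myh6 do not check the genotype. The labels give each mouse's cage, with 4 cages on the control diet and 3 others on the drug, so cage and diet cannot be told apart.

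Complex I (NADH:ubiquinone oxidoreductase) takes electrons from NADH, passes them along iron-sulfur clusters to ubiquinone and uses the energy to pump protons across the inner mitochondrial membrane. It is L-shaped: a matrix arm holds the flavin, which accepts electrons from NADH, and the clusters, and a membrane arm holds the proton pumps, whose core proteins are encoded by mitochondrial DNA. The heart, which burns mostly fatty acids, makes most of its ATP in the respiratory chain, where complex I is the main entry for electrons from NADH. The 35 nuclear genes were sorted by the place of their protein into the matrix arm (15 genes), the part of the membrane arm next to it (proximal, 9 genes) and the far part of the membrane arm (distal, 11 genes, with the acyl carrier protein Ndufab1).

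The libraries held 23491535 to 43539684 counts per mouse. One library stood furthest apart: R403Q-CD replicate 2 (numbers are names only) had a fitted quality weight of 0.173, the lowest summed level of 10 cardiomyocyte markers (69542 CPM, where the other 6 R403Q-CD mice had 89757 to 108062 and WT-CD mice 107001 to 117071), the highest summed level of 8 fibroblast markers (5997 CPM) and 10988 CPM of Nppa, the atrial natriuretic peptide gene, which both atrium and stressed ventricle express. It also had the highest sums of the 21 mice for the atrial markers (608 CPM, where the next mouse had 260.2) and for the macrophage markers (777 CPM, next 611). R403Q-CD replicate 5 came next in its group, with 89757 CPM of the cardiomyocyte markers, 3030 of the fibroblast markers and 3824 of Nppa. Its quality weight was 0.741 and its atrial sum 28.5 CPM. The 35 genes summed to 8594 CPM in replicate 2 and 10932 in replicate 5, the lowest levels of the group. CPM are counts scaled to the same library total after edgeR's TMM correction. The cardiomyocyte markers, a list not chosen to tell ventricle from atrium, were high in every library (at least 69542 CPM in sum). Markers of atrium (Myl7, Myl4, Sln and Bmp10) summed to 5.52 to 260.2 CPM in WT-CD, 3.21 to 608 in R403Q-CD, 2.7 to 34.8 in R403Q-EMPA and 2.12 to 78.1 in WT-EMPA, with R403Q-CD replicate 2 at the top of its group, and the part of atrial tissue in the results was not tested. Because whole tissue was sequenced, fewer cardiomyocytes and less RNA per cardiomyocyte cannot be told apart.

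Among the sequences behind these genes, the most telling for the counts is that of Ndufs5, a small accessory subunit on the intermembrane-space side. A processed pseudogene, BC002163 on chromosome 16 (GRCm38, chr16:42955631-42955949, plus strand), carries 99.4% of the same letters over 99.4% of its coding sequence. The first 150 of the 321 bases of the Ndufs5 coding sequence, from the GENCODE M21 transcripts, are shown with the 2 bases that differ from the copy in capitals. The copy spans bases 1 to 319, and these 2 are its only differences.

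Ndufs5: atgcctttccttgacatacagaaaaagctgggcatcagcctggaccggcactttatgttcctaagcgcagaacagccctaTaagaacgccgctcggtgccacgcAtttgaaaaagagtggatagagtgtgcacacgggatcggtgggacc

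Promoters, windows around each gene's start that reach 50 bases into the gene, were read from RefSeq (GRCm38.p6), which held 34 entries for 32 of the 35 genes; Ndufa2, Ndufb9 and Ndufs1 had none. Searches covered both strands. The letters AAGATGGCG of a YY1 motif, named for a zinc finger factor with targets among mitochondrial genes, stood in 14.7% of the 34 promoters and in 1.4% of all 32851 promoters of this length. In all 5 genes with a match it lay on the gene's strand and its ATG was the start codon. The 5 sites are shown because this motif's share exceeded that in all promoters by the most, each as 30 bases that end with the match, in capitals.

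Ndufa9, chr6:126849107-126849136, minus strand: ggccgtgaggcattgtgggagAAGATGGCG
Ndufc1, chr3:51408925-51408954, minus strand: aagaggcggagcctgcggaacAAGATGGCG
Ndufs4, chr13:114388051-114388080, minus strand: atcctggcgtttgcctacaggAAGATGGCG
Ndufs6, chr13:73328441-73328470, minus strand: gtggggtcaagggtcaccggcAAGATGGCG
Ndufs7, chr10:80249452-80249481, plus strand: ggttgtctgaaggccgaggccAAGATGGCG

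Motifs of the factors best known for respiratory chain genes were searched in the same windows, each as 1 exact string. Such strings are so uncommon in all promoters that 34 promoters cannot show whether the members differ. The full palindrome of nuclear respiratory factor 1 (NRF1), spelled by the 10 capitals in the Ndufa11 promoter below, was found in 1 of 34 member promoters (2.94%) beside 0.971% of all promoters, and ACTTCCGG of the ETS factor GABP in 1 of 34 (2.94%) beside 3.89%. TCAAGGTCA of the estrogen-related receptors was found in 0 of 34 beside 0.423%. Shorter and commoner motifs were GGGCGG of SP1, found in 47.1% of the 34 promoters beside 35.7% of all. For the factor NFY the letters CCAAT stood in 29.4% beside 37.4%. A core promoter element, TATAAA, stood in 14.7% beside 13.6%. The promoters with the NRF1 and the GABP match are shown, with the match in capitals, from 150 bases before the gene's start to that start or to the end of the match, because Ndufa11 was the gene with the smallest p in one of the comparisons below and Ndufs3 is a core subunit.

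Ndufa11, chr17:56717612-56717761, plus strand: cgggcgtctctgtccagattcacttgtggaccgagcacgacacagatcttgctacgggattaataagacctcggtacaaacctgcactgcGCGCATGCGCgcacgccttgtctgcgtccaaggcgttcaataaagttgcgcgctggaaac
Ndufs3, chr2:90904714-90904871, minus strand: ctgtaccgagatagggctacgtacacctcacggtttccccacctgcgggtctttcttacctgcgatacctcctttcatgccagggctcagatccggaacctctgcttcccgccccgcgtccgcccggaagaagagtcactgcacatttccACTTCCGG

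Together the 35 genes had a share of the counts of 1.28 ± 0.0711% (SD, n = 5) in WT-CD mice, 1.27 ± 0.182% (n = 7) in R403Q-CD mice, 1.27 ± 0.136% (n = 4) in R403Q-EMPA mice and 1.14 ± 0.109% (n = 5) in WT-EMPA mice. Their levels per length in WT-CD, in CPM per kb of the transcript with the full coding sequence, lay between 147 (Ndufs4, a matrix-arm subunit whose human gene is mutated in Leigh syndrome) and 873 (Ndufa3, a small proximal subunit) for 32 of them. The other 3 were lower. Ndufab1 had 106 CPM per kb, Ndufb4 14.7 and Ndufs5 5.46, and each of these has a pseudogene copy of at least 99.4% identity, described below. The highest levels after Ndufa3 were those of the distal subunits Ndufb8 (723 CPM per kb), Ndufb9 (672) and Ndufb10 (653).

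The common level of the genes was summarized in each mouse as the mean over the 35 genes of log2 CPM, less the mean of WT-CD. It was 0.00 ± 0.11 in WT-CD (SD), -0.06 ± 0.27 in R403Q-CD, -0.01 ± 0.18 in R403Q-EMPA and -0.16 ± 0.15 in WT-EMPA. The R403Q-CD mice spread widest, from -0.55 in replicate 2 to 0.30 in replicate 4, and their range held those of the other 3 groups. Among R403Q-EMPA mice, replicate 1 was highest at 0.24. The 4 groups overlapped in this common level. Nearly all genes moved together from mouse to mouse, as the rows of the plot of single genes show.

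**Figure D1:**
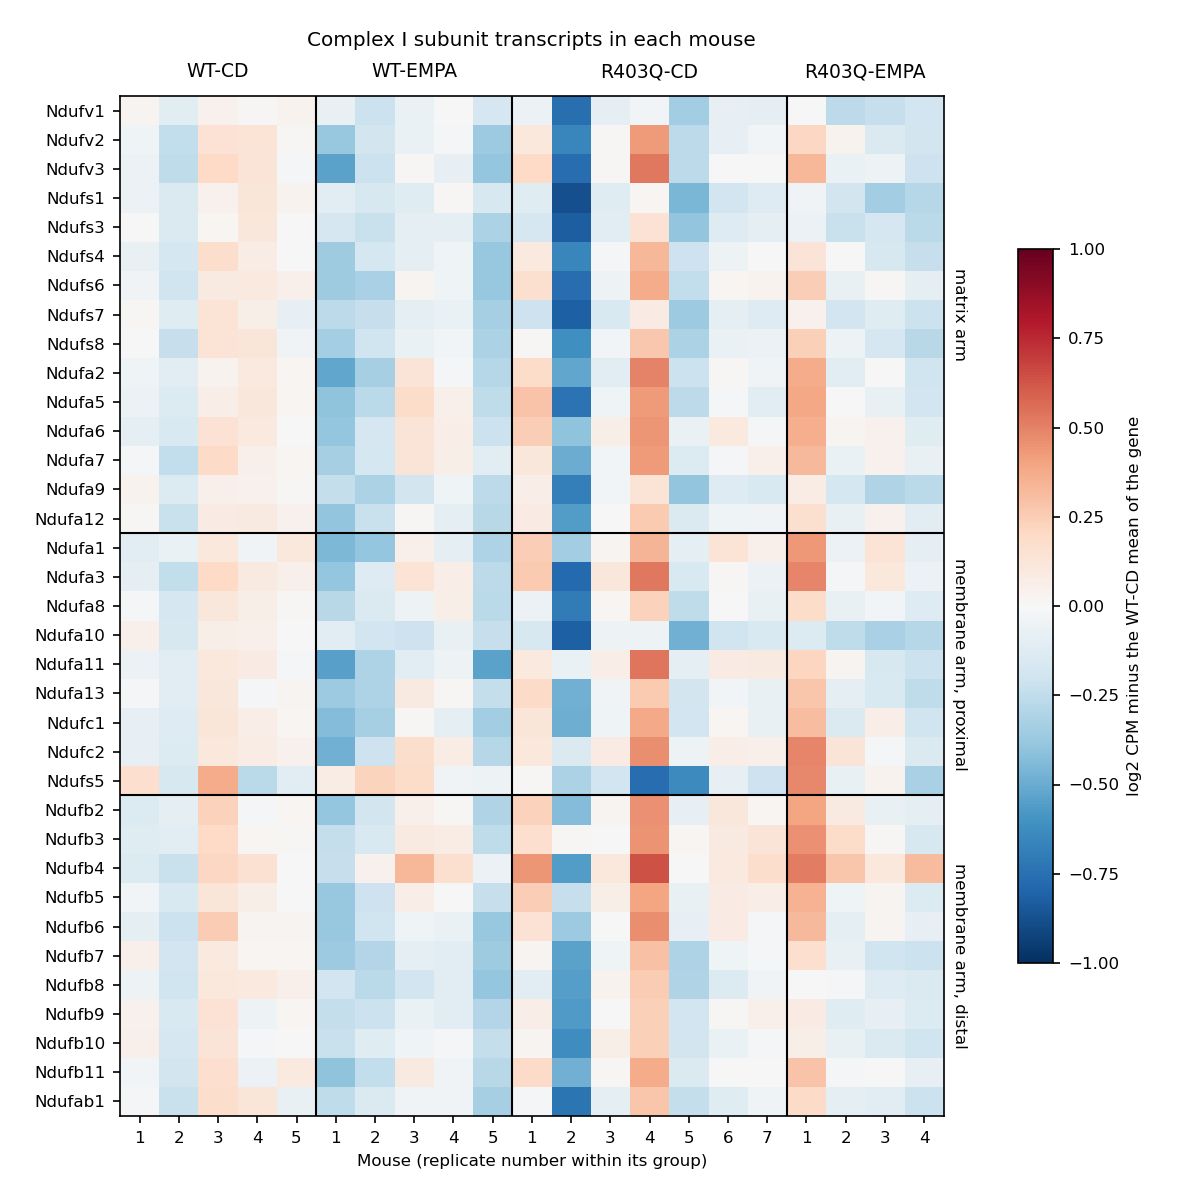
Level of each of the 35 genes (rows, by arm of complex I) in each of the 21 mice (columns, by group), as log2 CPM minus the gene's mean in WT-CD. The column of R403Q-CD replicate 2 is low and that of R403Q-CD replicate 4 high for nearly every gene, and Ndufs5 departs from the others.

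**Figure D2:**
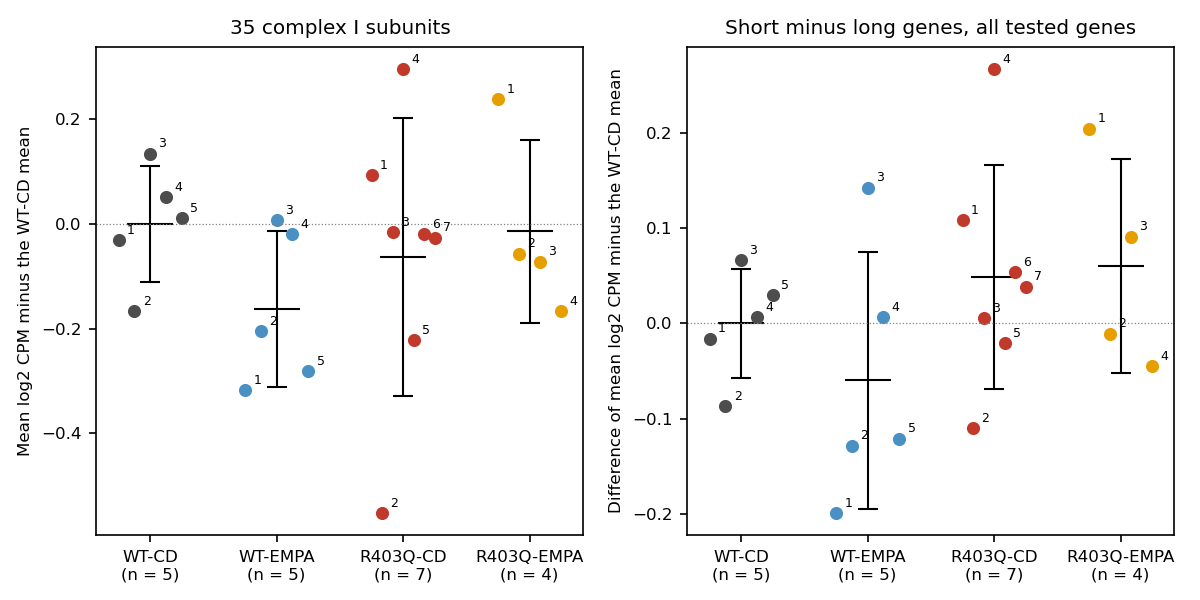
Left, mean over the 35 genes of log2 CPM minus the WT-CD mean, 1 point per mouse, numbered by replicate, with the mean ± SD of each group; right, the same for the difference between 1760 genes with under 1 kb of exons and 8214 genes with over 4 kb. The groups overlap in both, R403Q-CD runs from -0.55 to 0.30 on the left, and the WT-EMPA mean is the lowest in both.

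The design asks whether the mutation shifts these genes on each diet and whether the drug shifts them in each genotype. By edgeR's quasi-likelihood test on all 21 mice, with Benjamini-Hochberg adjustment over 17309 genes, 0 of 35 genes had an adjusted p under 0.05 in any of the 4 comparisons. The threshold was passed by 1.44% of all genes in R403Q-CD against WT-CD, 0.0116% in R403Q-EMPA against R403Q-CD, 0.0289% in WT-EMPA against WT-CD and 0.0578% in R403Q-EMPA against WT-EMPA. DESeq2's Wald test also called 0 of 35, where it called 6.11%, 0.937%, 0.553% and 2.04% of the genes it could adjust. For 0 of 35 genes did the values of both groups stay apart without overlap in any comparison, which held for 2.12%, 1.62%, 3.45% and 6.77% of all genes in the same order. At an unadjusted p under 0.05 there were 3 genes, 1, 3 and 2 of 35 in that order, beside 20.9%, 13.4%, 11% and 14.7% of all genes. Over the alternatives these counts ran from 1 to 6, 0 to 1, 0 to 17 and 0 to 12 of 35. The most in WT-EMPA against WT-CD, 17, came from a fit of these groups alone (16.1% of all genes), with 14 under sample quality weights (16.3%) and 8 with library size alone (10.9%), and 0 without WT-EMPA replicate 1 or 5. In R403Q-EMPA against WT-EMPA library size alone gave 12 (15.4%), and leaving out R403Q-EMPA replicate 1 gave 0. The comparisons share groups of mice and are not independent of each other.

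Between R403Q-CD and WT-CD, 22 of 35 genes had a log2 fold change (first minus second group) below 0 and the median was -0.04, beside 47.5% of all genes below 0 and a median of 0.01. Without R403Q-CD replicate 2 the median of the 35 was 0.03. In R403Q-EMPA against R403Q-CD the median was 0.03, with 27 of 35 above 0 beside 49.2% of all genes (50.8% below), and it was -0.05 without R403Q-CD replicate 2 and -0.07 without R403Q-EMPA replicate 1. For WT-EMPA against WT-CD 33 of 35 lay below 0, beside 50.9% of all genes (49.1% above), with a median of -0.17. In R403Q-EMPA against WT-EMPA 30 of 35 lay above 0, beside 51.7% (48.3% below), with a median of 0.17, and 27 of 35 with a median of 0.09 without R403Q-EMPA replicate 1. The sign of the last pair of medians was the same in every alternative run, whereas the sign of the first pair was not. With cage as a factor the median was -0.12 in R403Q-CD against WT-CD, where all 4 cages held both genotypes. It was 0.15 in R403Q-EMPA against WT-EMPA, where 1 of 3 cages held 3 WT-EMPA mice and no R403Q mouse, so the value rests on the 2 WT-EMPA mice caged with the 4 R403Q-EMPA mice. In both, 0 of 35 genes passed the threshold. Because the genes vary together, a count of signs over them does not count independent observations.

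The intervals show what size of shift these samples could have missed. The 95% interval of the log2 fold change stayed within 0.5 in either direction for 34 of 35 genes in R403Q-CD against WT-CD, 34 in R403Q-EMPA against R403Q-CD, 32 in WT-EMPA against WT-CD and 23 in R403Q-EMPA against WT-EMPA. These intervals are per gene and unadjusted.

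**Figure D3:**
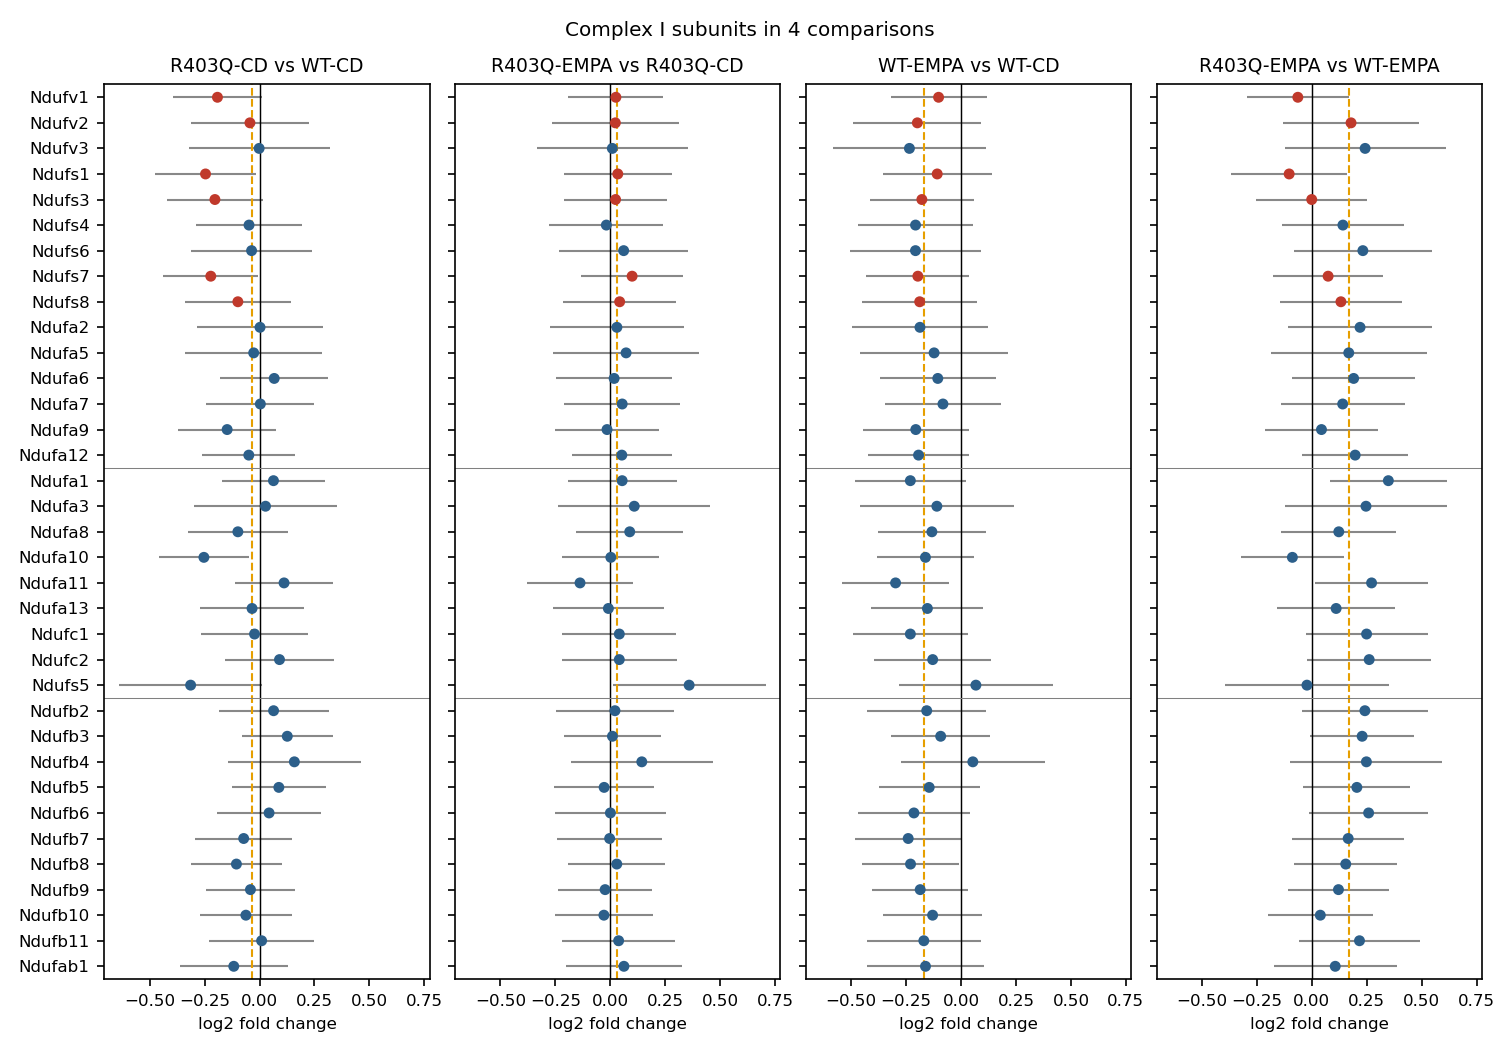
Log2 fold change (points) with its 95% interval (bars) of each of the 35 genes in the 4 comparisons, from the edgeR fit, with the 6 core matrix-arm subunits in red, the others in blue and the median as a dashed line. Medians are -0.04, 0.03, -0.17 and 0.17, and 0 of 35 genes pass the adjusted threshold in any panel.

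Of the core subunits of the matrix arm, conserved since bacteria, 6 are among the 35 genes. Ndufv1 binds NADH and the flavin, Ndufv2, Ndufs1, Ndufs7 and Ndufs8 hold iron-sulfur clusters, and Ndufs3 is a core protein without a cluster. In R403Q-CD against WT-CD all 6 had a log2 fold change below 0, from -0.25 to -0.04 with a median of -0.20, where 47.5% of all genes lay below 0. Without R403Q-CD replicate 2, 5 of 6 were below 0 and the median was -0.12. In WT-EMPA against WT-CD all 6 were below 0 as well (median -0.18), and in R403Q-EMPA against WT-EMPA 3 of 6 (median 0.04, and -0.01 without R403Q-EMPA replicate 1). In R403Q-EMPA against R403Q-CD all 6 were above 0 with a median of 0.03, and 1 of 6 without R403Q-CD replicate 2 (median -0.05).

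Ndufs1, the largest of them, carries several clusters on the path from the flavin (chr1:63143596-63176833, GRCm38, minus strand). It measured 1191, 1119, 1278, 1346 and 1272 CPM in WT-CD mice, between 673 and 1256 (median 1131) in R403Q-CD, 1208, 1089.8, 972 and 1017 in R403Q-EMPA and 1150.4, 1110.3, 1137, 1252 and 1106 in WT-EMPA. WT-CD mice were the highest on the whole, R403Q-CD replicate 2 was the lowest, and the groups overlapped. The log2 fold change in R403Q-CD against WT-CD was -0.25 (SE 0.11, 95% interval -0.47 to -0.02, edgeR adjusted p = 0.206), and -0.17 without R403Q-CD replicate 2. With the drug in R403Q mice it was 0.03 (95% interval -0.21 to 0.28), and between the genotypes on the drug -0.10 (-0.37 to 0.16), which became -0.17 without R403Q-EMPA replicate 1.

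Ndufs7 holds the last cluster, beside the site where ubiquinone is reduced (chr10:80249121-80256794, plus strand). It measured 402.7, 368, 439.8, 415 and 377 CPM in WT-CD, between 227 and 422 (median 359) in R403Q-CD, 411, 349, 367 and 344 in R403Q-EMPA and 333, 340.4, 375, 381 and 318 in WT-EMPA. WT-CD mice again lay high, with overlap of all groups. Its log2 fold change in R403Q-CD against WT-CD was -0.22 (SE 0.10, 95% interval -0.44 to -0.01, edgeR adjusted p = 0.228), and -0.15 without R403Q-CD replicate 2. Its value in WT-EMPA against WT-CD was -0.20 (95% interval -0.43 to 0.04).

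Ndufv1 (chr19:4007384-4012806, minus strand) had 1004, 911, 1019, 995 and 1010.3 CPM in WT-CD, between 584 and 969 (median 927) in R403Q-CD, 991, 825, 841 and 864 in R403Q-EMPA and 939, 851, 944, 988 and 879 in WT-EMPA. Its partner in the NADH-oxidizing tip, Ndufv2 (chr17:66078638-66101559, minus strand), had 743, 646, 844, 840.3 and 769 CPM in WT-CD, between 487 and 1028 (median 749) in R403Q-CD, 881, 783, 693 and 674 in R403Q-EMPA and 589, 675, 731, 758 and 595 in WT-EMPA. WT-CD and R403Q-CD overlapped for both genes, and the WT-EMPA mice lay within or just under the WT-CD range. In R403Q-CD against WT-CD the log2 fold change was -0.19 for Ndufv1 (95% interval -0.39 to 0.01) and -0.04 for Ndufv2 (-0.31 to 0.23). Without R403Q-CD replicate 2 these were -0.12 and 0.03.

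Ndufs3, a core protein near the ubiquinone site (chr2:90894634-90904827, minus strand), had 235, 211, 237, 252 and 234 CPM in WT-CD, between 132 and 258 (median 213) in R403Q-CD, 224, 200.4, 208 and 193 in R403Q-EMPA and 208, 199.7, 219, 218 and 188 in WT-EMPA. Ndufs8, which passes electrons on to Ndufs7 (chr19:3908863-3912774, minus strand), had 271, 231, 297, 294 and 264 CPM in WT-CD, between 177 and 326 (median 259) in R403Q-CD, 319, 261, 241 and 223 in R403Q-EMPA and 214, 236, 258, 265 and 218 in WT-EMPA. R403Q-CD replicate 2 was the lowest mouse and R403Q-CD replicate 4 the highest for both. Log2 fold changes in R403Q-CD against WT-CD were -0.20 (95% interval -0.42 to 0.02) for Ndufs3 and -0.10 (-0.34 to 0.14) for Ndufs8, and -0.13 and -0.03 without R403Q-CD replicate 2.

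The other 9 genes of the matrix arm code for accessory subunits, which surround the core and are needed to build or steady it. Over all 15 genes of this arm, 12 lay below 0 in R403Q-CD against WT-CD with a median of -0.05, and 6 without R403Q-CD replicate 2, with a median of 0.03. The extremes among the 9 were -0.15 for Ndufa9, which sits near the ubiquinone site, and 0.07 for Ndufa6, of the LYR protein family. Against WT-CD, WT-EMPA had all 15 below 0 (median -0.19), from -0.23 for the accessory subunit Ndufv3 to -0.08 for Ndufa7. In R403Q-EMPA against WT-EMPA 12 of 15 lay above 0 with a median of 0.14, and 11 of 15 with a median of 0.04 without R403Q-EMPA replicate 1.

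The 9 genes of the proximal membrane arm held the gene with the smallest p in each of the 4 comparisons. Their log2 fold changes had medians of -0.02 in R403Q-CD against WT-CD (5 of 9 below 0; 3 of 9, median 0.04, without R403Q-CD replicate 2), 0.04 in R403Q-EMPA against R403Q-CD (7 of 9 above 0; 4 of 9, median -0.009, without that mouse), -0.15 in WT-EMPA against WT-CD (8 of 9 below 0) and 0.25 in R403Q-EMPA against WT-EMPA (7 of 9 above 0; 6 of 9, median 0.11, without R403Q-EMPA replicate 1).

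Ndufa10 is an accessory subunit related to nucleoside kinases that sits on the matrix face of the membrane arm (chr1:92439010-92473860, minus strand). It had 801, 693, 807, 803 and 770.4 CPM in WT-CD, between 440.3 and 749 (median 692) in R403Q-CD, 703, 649, 619 and 635 in R403Q-EMPA and 718, 679, 672, 736 and 659 in WT-EMPA. In WT-CD, 4 of 5 mice exceeded every R403Q-CD mouse, and replicate 2 of WT-CD lay among them. The log2 fold change in R403Q-CD against WT-CD was -0.25 (SE 0.10, 95% interval -0.46 to -0.05, edgeR adjusted p = 0.155), the smallest p among the 35. Without R403Q-CD replicate 2 it was -0.18, and over all alternatives the adjusted p ran from 0.081 to 0.284. In R403Q-EMPA against R403Q-CD the difference was 0.00 (95% interval -0.22 to 0.22).

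Ndufa11 spans the membrane and lies where complex I meets complex III in respiratory supercomplexes (chr17:56717767-56722141, plus strand). It had 260.0, 249, 291, 286 and 266 CPM in WT-CD, between 252 and 391 (median 285) in R403Q-CD, 313, 276, 241 and 232 in R403Q-EMPA and 185, 218, 250.0, 261 and 187 in WT-EMPA. In WT-EMPA 3 of 5 mice were under every WT-CD mouse and the other two lay in the WT-CD range. In WT-EMPA against WT-CD the log2 fold change was -0.30 (SE 0.12, 95% interval -0.54 to -0.06, edgeR adjusted p = 0.346), the smallest p of that comparison. Between the genotypes on the drug it was 0.27 (SE 0.12, 95% interval 0.02 to 0.53, edgeR adjusted p = 0.302), and 0.18 without R403Q-EMPA replicate 1, where R403Q-EMPA replicates 3 and 4 lay among the WT-EMPA mice.

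Ndufa1, a small X-linked subunit with a single membrane span that is needed for assembly (chrX:37187588-37191163, minus strand), had 217, 225, 254, 230.2 and 254 CPM in WT-CD, between 185 and 297 (median 243) in R403Q-CD, 318, 227, 259 and 220.2 in R403Q-EMPA and 173, 179.9, 244, 219.5 and 190.1 in WT-EMPA. R403Q-EMPA replicate 1 was the highest of the 21 mice, and 1 of 5 WT-EMPA mice lay inside the R403Q-EMPA range. In R403Q-EMPA against WT-EMPA the log2 fold change was 0.35 (SE 0.13, 95% interval 0.08 to 0.61, edgeR adjusted p = 0.222), the smallest p of that comparison. Without R403Q-EMPA replicate 1 it was 0.23 (edgeR adjusted p = 0.581). Its value in WT-EMPA against WT-CD was -0.23 (95% interval -0.48 to 0.02). Ndufc2, another proximal subunit, had 0.26 (SE 0.14, 95% interval -0.02 to 0.54, edgeR adjusted p = 0.371) between the genotypes on the drug, and 0.12 without R403Q-EMPA replicate 1.

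Ndufs5 (chr4:123712710-123718202, minus strand), whose coding sequence is shown above, had 3.19, 2.52, 3.68, 2.33 and 2.62 CPM in WT-CD, between 1.65 and 2.85 (median 2.44) in R403Q-CD, 3.97, 2.69, 2.9 and 2.25 in R403Q-EMPA and 2.99, 3.31, 3.22, 2.76 and 2.72 in WT-EMPA. The groups overlapped at a level where a mouse had as few as 53 counts. The log2 fold change in R403Q-EMPA against R403Q-CD was 0.36 (SE 0.17, 95% interval 0.01 to 0.71, edgeR adjusted p = 0.356), the smallest p of that comparison (0.19 without R403Q-EMPA replicate 1), and in R403Q-CD against WT-CD it was -0.31 (95% interval -0.64 to 0.01). The authors counted only uniquely aligned pairs, and over the 21 mice 1895 counts went to Ndufs5 and 141055 to its copy BC002163. The copy had 214 ± 10.6 CPM in the 5 WT-CD mice (mean ± SD), 199 ± 27.5 in R403Q-CD (n = 7), 216 ± 32.3 in R403Q-EMPA (n = 4) and 189.7 ± 16.3 in WT-EMPA (n = 5). With the counts of gene and copy joined, the log2 fold change in R403Q-EMPA against R403Q-CD was 0.12 (SE 0.10, edgeR adjusted p = 0.635), in R403Q-CD against WT-CD -0.11 (SE 0.09, edgeR adjusted p = 0.539), in WT-EMPA against WT-CD -0.17 (SE 0.10, edgeR adjusted p = 0.561) and in R403Q-EMPA against WT-EMPA 0.18 (SE 0.11, edgeR adjusted p = 0.438). These joined values lay nearer to those of the other subunits, and in the last pair of comparisons their sign was opposite to that of Ndufs5 alone (0.07 and -0.02). Which of the loci the reads came from was not tested.

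**Figure D4:**
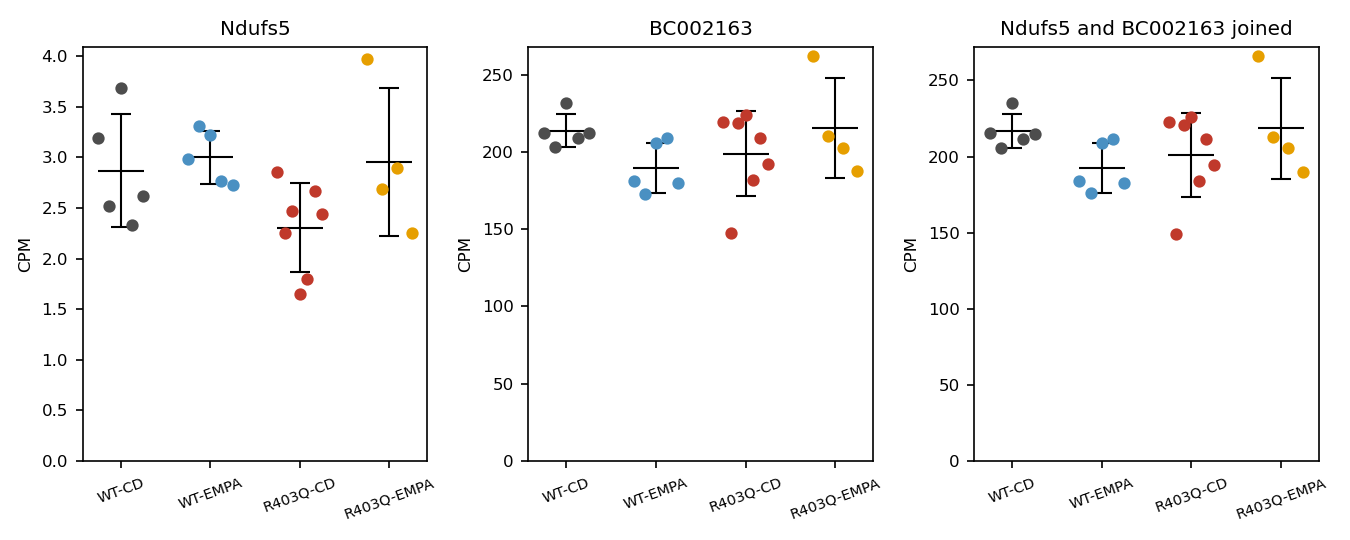
CPM of Ndufs5, of its pseudogene copy BC002163 and of both joined, 1 point per mouse with the mean ± SD of each group. Ndufs5 lies between 1.65 and 3.97 CPM and the copy between 147 and 262, so the joined level follows the copy, and the groups overlap in all 3 panels.

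Similar copies exist for other members. Searches of the GENCODE transcripts found 18 annotated processed pseudogenes, of 13 of the 35 genes, with at least 90% identity over at least 50% of the coding sequence. Of these, 8 copies of 7 genes had over 1000 counts in all, and 3 genes (Ndufa12, Ndufab1 and Ndufs5) had fewer counts than a copy. Ndufa12, an accessory matrix-arm subunit, had 104520 counts and its copy Gm15920 (99.5% identity) 145970. For Ndufab1, the mitochondrial acyl carrier protein, 97897 counts stood beside 118048 of Gm4459 and 40926 of Ndufab1-ps. Joining the counts gave -0.18 (SE 0.11, edgeR adjusted p = 0.592) for Ndufa12 and -0.17 (SE 0.13, edgeR adjusted p = 0.656) for Ndufab1 in WT-EMPA against WT-CD, close to -0.19 and -0.16 without the copies. The counts of these members are uncertain to the extent that reads fit both loci equally well.

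In the distal membrane arm, 11 genes code for accessory subunits around the mitochondrially encoded pumps. Their medians were 0.01 in R403Q-CD against WT-CD (5 of 11 below 0; 0.07, 3 of 11, without R403Q-CD replicate 2), 0.01 in R403Q-EMPA against R403Q-CD (7 of 11 above 0; -0.05, 1 of 11, without that mouse), -0.16 in WT-EMPA against WT-CD (10 of 11 below 0) and 0.20 in R403Q-EMPA against WT-EMPA (11 of 11 above 0, beside 51.7% of all genes; 0.11, 10 of 11, without R403Q-EMPA replicate 1).

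Ndufb7, which faces the intermembrane space and is held by disulfide bonds (chr8:83566671-83571626, plus strand), had 352, 297, 363, 343 and 343 CPM in WT-CD, between 233 and 415 (median 329.7) in R403Q-CD, 381, 321, 296 and 292 in R403Q-EMPA and 263, 277, 318, 314 and 265 in WT-EMPA. Ndufb8, a distal subunit often used on blots as a marker of assembled complex I (chr19:44548572-44555440, minus strand), had 473, 426, 528, 523 and 508 CPM in WT-CD, between 334 and 585 (median 456) in R403Q-CD, 488, 487, 449 and 442 in R403Q-EMPA and 429, 407, 429.9, 456 and 374 in WT-EMPA. For both genes, WT-CD replicate 2 was the lowest of its group and lay among the WT-EMPA mice, while the other 4 WT-CD mice exceeded every WT-EMPA mouse. The log2 fold change in WT-EMPA against WT-CD of Ndufb7 was -0.24 (SE 0.12, 95% interval -0.48 to -0.00, edgeR adjusted p = 0.453) and that of Ndufb8 -0.23 (SE 0.11, 95% interval -0.45 to -0.01, edgeR adjusted p = 0.44).

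Ndufb3 (chr1:58586384-58595964, plus strand), a distal subunit with a single membrane span, had 170.1, 171, 212, 187 and 186 CPM in WT-CD, between 185 and 251 (median 196) in R403Q-CD, 253, 210.1, 186 and 165 in R403Q-EMPA and 156, 166, 197, 195 and 155 in WT-EMPA. Its level in R403Q-EMPA against WT-EMPA differed by 0.23 (SE 0.11, 95% interval -0.01 to 0.47, edgeR adjusted p = 0.352), or 0.11 without R403Q-EMPA replicate 1, and R403Q-EMPA replicates 3 and 4 lay among the WT-EMPA mice. Ndufb4, another distal accessory subunit (chr16:37647170-37654453, minus strand), had 12.9, 12.1, 16.3, 15.7 and 14.1 CPM in WT-CD, between 9.6 and 22.1 (median 15.3) in R403Q-CD, 20.2, 17.2, 15.2 and 17.7 in R403Q-EMPA and 12.1, 14.6, 17.8, 15.8 and 13.6 in WT-EMPA. It was the only distal gene above 0 in WT-EMPA against WT-CD (0.05, 95% interval -0.27 to 0.38), and the pseudogene Ndufb4c matches its coding sequence at every base. With the counts of Ndufb4 and Ndufb4c joined the value was 0.08 (SE 0.15, edgeR adjusted p = 0.885), still above 0. The joined level in WT-CD was 18.4 ± 2.17 CPM (mean ± SD), still low. Ndufb6, also distal, had 0.26 (SE 0.13, 95% interval -0.01 to 0.53, edgeR adjusted p = 0.355) in R403Q-EMPA against WT-EMPA, and 0.15 without R403Q-EMPA replicate 1.

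Whether the effect of the drug differed between the genotypes was tested as an interaction, (R403Q-EMPA minus R403Q-CD) minus (WT-EMPA minus WT-CD). By edgeR, 0 of 35 genes passed, as did 0% of all genes, and 0 of 35 had an unadjusted p under 0.05, beside 3.28% of all genes. DESeq2 called 0 of 35 as well. The estimates were above 0 for 35 of 35 genes, where 49.8% of all genes were (50.2% below), with a median of 0.20 on the log2 scale. Without R403Q-EMPA replicate 1 the median was 0.11, and without R403Q-CD replicate 2 it was 0.13, with 34 of 35 above 0 in each. Over all alternatives 0 to 5 of 35 had an unadjusted p under 0.05. The estimates in all mice ran from 0.09 for Ndufb4 to 0.30 for Ndufs7, whose test had the smallest p of the 35 (SE 0.16, 95% interval -0.03 to 0.63, edgeR adjusted p = 0.999). Next in p came Ndufb8 and Ndufa1 with 0.26 (95% interval -0.05 to 0.57) and 0.28 (-0.07 to 0.64). The intervals of 9 of 35 genes stayed within 0.5 in either direction, so an interaction of that size could have been missed for most genes.

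To describe how the genes vary within groups, the group mean was removed from each gene's log2 CPM and each gene was correlated across the 21 mice with the mean of the other 34. Pearson's r had a median of 0.951 and exceeded 0.8 for 33 of 35 genes, beside 3.01% of the 17274 other tested genes. Without R403Q-CD replicate 2 the median was 0.938 and 31 of 35 exceeded 0.8. The exceptions in all mice were Ndufs5 (0.197) and Ndufb3 (0.781). All genes of a mouse share its library and depth, and r is given as a description without a test.

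Of the 35 genes, 24 have transcripts under 1 kb, and short genes as a class also varied between mice. The mean log2 difference between genes with under 1 kb and those with over 4 kb of exons, less that of WT-CD, was 0.05 ± 0.12 in R403Q-CD (SD), 0.06 ± 0.11 in R403Q-EMPA and -0.06 ± 0.14 in WT-EMPA. In WT-EMPA against WT-CD the median log2 fold change of 1760 genes with under 1 kb of exons was -0.06 and that of 8214 genes with over 4 kb 0.03, and in R403Q-EMPA against WT-EMPA these were 0.14 and -0.03. In R403Q-CD against WT-CD they were 0.06 and -0.01, and in R403Q-EMPA against R403Q-CD 0.02 and 0.01. Beside them the medians of the 35 genes were -0.17, 0.17, -0.04 and 0.03 in the same order, so their sign was that of the short genes in 3 of 4 comparisons and the opposite in R403Q-CD against WT-CD. Within the 35, the medians of the 24 genes under 1 kb and the 11 longer ones were -0.18 and -0.16 in WT-EMPA against WT-CD. They were 0.21 and 0.11 in R403Q-EMPA against WT-EMPA, -0.01 and -0.12 in R403Q-CD against WT-CD, and 0.04 and 0.01 in R403Q-EMPA against R403Q-CD. Lengths of the 35 are those of 1 coding transcript, whereas those of all genes count every exon. The part of transcript length in the result was not tested.

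The other complexes of the respiratory chain were listed beside complex I. In WT-EMPA against WT-CD all 4 tested genes of complex II (succinate dehydrogenase), 9 of 9 of complex III, 11 of 11 of complex IV and 14 of 14 of the ATP synthase lay below 0, with medians of -0.09, -0.16, -0.18 and -0.14, beside -0.17 for complex I. In R403Q-EMPA against WT-EMPA the medians were -0.07, 0.19, 0.25 and 0.11, beside 0.17. Without R403Q-EMPA replicate 1 they were -0.11, 0.08, 0.13 and 0.02, beside 0.09. Among these 38 tested genes 0 passed the edgeR threshold in any comparison, with 7 at an unadjusted p under 0.05 in R403Q-CD against WT-CD, 0 in R403Q-EMPA against R403Q-CD, 2 in WT-EMPA against WT-CD and 5 in R403Q-EMPA against WT-EMPA, and DESeq2 called 1 gene, Sdhc. At that unadjusted level stood 20.9%, 13.4%, 11% and 14.7% of all genes in the same order. The smallest adjusted p by edgeR among them were those of Sdhc, a membrane anchor of complex II, in R403Q-CD against WT-CD (-0.27, adjusted p = 0.092) and of Uqcrc1, a core protein of complex III, in the same comparison (-0.33, adjusted p = 0.125). For Cox7c of complex IV in R403Q-EMPA against WT-EMPA the edgeR values were 0.52 and an adjusted p of 0.149.

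Assembly factors build complex I without staying in it. Of 19 tested, 15 lay below 0 in R403Q-CD against WT-CD (median -0.09; 13 of 19 and -0.06 without R403Q-CD replicate 2) and 16 in WT-EMPA against WT-CD (median -0.07, from -0.13 without WT-EMPA replicate 3 to -0.04 without WT-CD replicate 3), and 0 passed the edgeR threshold in any comparison, with 6 and 4 at an unadjusted p under 0.05 (20.9% and 11% of all genes). Ecsit, a component of the assembly complex of the membrane arm, came nearest, with -0.26 in R403Q-CD against WT-CD (SE 0.08, edgeR adjusted p = 0.0703), and it was the only 1 of the 19 that DESeq2 called. In R403Q-EMPA against R403Q-CD 15 of 19 lay above 0 (median 0.02), with 0 at an unadjusted p under 0.05. In R403Q-EMPA against WT-EMPA 12 of 19 did (median 0.03), with 3 at that level, beside 14.7% of all genes. Without R403Q-EMPA replicate 1 both medians were -0.02.

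Regulators of mitochondrial biogenesis, which include the coactivator Ppargc1a and the receptors that it binds, had medians of the opposite sign to the subunits in both comparisons with WT-EMPA. Of 14 tested, 12 lay above 0 in WT-EMPA against WT-CD (median 0.11) and 11 below 0 in R403Q-EMPA against WT-EMPA (median -0.12), and 0 passed in any comparison by edgeR or DESeq2, with 0 and 3 at an unadjusted p under 0.05 by edgeR. In R403Q-CD against WT-CD 11 of 14 lay below 0 (median -0.13; 13 of 14 and -0.07 without R403Q-CD replicate 2), with the smallest p for Ppara, a receptor for fatty acids (-0.45, edgeR adjusted p = 0.107). There 5 of the 14 had an unadjusted p under 0.05 by edgeR, beside 20.9% of all genes, and 4 without R403Q-CD replicate 2. In R403Q-EMPA against R403Q-CD 11 of 14 lay above 0 (median 0.13, and 0.10 without R403Q-CD replicate 2). By edgeR 4 of the 14 had an unadjusted p under 0.05 there, beside 13.4% of all genes, and 2 without that mouse. The smallest p was that of the estrogen-related receptor Esrrb (0.41, edgeR adjusted p = 0.213). Ppargc1a had 205 ± 26.1 CPM in the 5 WT-CD mice (mean ± SD), 180.2 ± 60.7 in R403Q-CD (n = 7; 85.1 in replicate 2, the lowest), 171 ± 25.9 in R403Q-EMPA (n = 4) and 239 ± 17.4 in WT-EMPA (n = 5).

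Genes outside the respiratory chain are given as values beside these. For the counts at an unadjusted p under 0.05 below, the shares of all genes were 20.9% in R403Q-CD against WT-CD and 13.4% in R403Q-EMPA against R403Q-CD. They were 11% in WT-EMPA against WT-CD and 14.7% in R403Q-EMPA against WT-EMPA. Genes of the cytosolic ribosome lay above 0 in 44 of 46 cases in R403Q-CD against WT-CD (median 0.19), in 32 in R403Q-EMPA against R403Q-CD (0.05), in 8 in WT-EMPA against WT-CD (-0.07) and in 43 in R403Q-EMPA against WT-EMPA (0.27), with 0 past the edgeR threshold. At an unadjusted p under 0.05 there were 12 of them in R403Q-CD against WT-CD and 31 in R403Q-EMPA against WT-EMPA, and DESeq2 called 1 and 3. The 31 became 11 without R403Q-EMPA replicate 1, where the median in R403Q-EMPA against R403Q-CD was -0.01. Cardiomyocyte markers lay below 0 for 8 of 10 in R403Q-CD against WT-CD, with the smallest p for Myh6 (-0.39, edgeR adjusted p = 0.158). Their sum was 107001 to 117071 CPM in WT-CD, 69542 to 108062 in R403Q-CD, 93214 to 105216 in R403Q-EMPA and 105381 to 119564 in WT-EMPA. Macrophage markers lay above 0 in R403Q-CD against WT-CD for 7 of 7. By edgeR 2 rose past the threshold (7 by DESeq2): Csf1r, the receptor for the macrophage growth factor (0.45, edgeR adjusted p = 0.0254), and Adgre1, which codes for the surface protein F4/80 (0.67, SE 0.16, edgeR adjusted p = 0.0351). Both were called in 7 of the 12 fits that left out 1 mouse of these groups, among them that without R403Q-CD replicate 2, and in none without R403Q-CD replicate 5 or WT-CD replicate 1, 2, 3 or 4. In a fit of these groups alone, and with cage as a factor, neither was called (edgeR adjusted p up to 0.093 for Csf1r and 0.128 for Adgre1). In the fit of the study's 3 groups Csf1r was called (edgeR adjusted p = 0.040) and Adgre1 was not (edgeR adjusted p = 0.0636). In R403Q-EMPA against WT-EMPA 7 of 7 also lay above 0, with a median of 0.64 and 7 at an unadjusted p under 0.05. By edgeR 0 passed there, with the smallest p for C1qa, a complement gene (0.76, edgeR adjusted p = 0.0854), and DESeq2 called 3 (C1qa, C1qb and Csf1r). The macrophage sum was 298 to 415 CPM in WT-CD, 429.5 to 777 in R403Q-CD, 493 to 611 in R403Q-EMPA and 241 to 453 in WT-EMPA.

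Fibroblast markers summed to 1219.7 to 2027 CPM in WT-CD, 1622 to 5997 in R403Q-CD, 1755 to 2337 in R403Q-EMPA and 1076 to 1683 in WT-EMPA. In R403Q-CD against WT-CD 8 of 8 lay above 0 (median 0.93), with 6 at an unadjusted p under 0.05, 0 past the edgeR threshold and 1, the collagen-binding proteoglycan gene Dcn, called by DESeq2. Without R403Q-CD replicate 2 the median was 0.39, with 8 of 8 above 0 and 2 at that level. In R403Q-EMPA against R403Q-CD 7 of 8 lay below 0 (median -0.49), and 5 of 8 without R403Q-CD replicate 2 (median -0.12). In R403Q-EMPA against WT-EMPA 8 of 8 lay above 0 (median 0.66, and 0.35 without R403Q-EMPA replicate 2). Red cell markers, the hemoglobin genes and Alas2, ran from 706 to 1279 CPM in WT-CD to 1235 to 2002 in WT-EMPA and 1213 to 2659 in R403Q-EMPA, with 877 to 1716 in R403Q-CD. All 5 lay above 0 with the drug in both genotypes, with medians of 0.63 in R403Q-EMPA against R403Q-CD and 0.63 in WT-EMPA against WT-CD. Of these, 5 and 4 had an unadjusted p under 0.05, 0 passed the edgeR threshold in either, and DESeq2 called 2 (Alas2 and Hbb-bt) in the first and 0 in the second. Without R403Q-EMPA replicate 1 the first median was 0.42, with 3 at an unadjusted p under 0.05. Endothelial markers summed to 822 to 1004 CPM in WT-CD, 944 to 1169 in R403Q-CD, 998 to 1323 in R403Q-EMPA and 897 to 1111 in WT-EMPA. They lay above 0 for 8 of 8 in R403Q-CD against WT-CD (median 0.12), with 2 at an unadjusted p under 0.05, 0 past the edgeR threshold and 1, Emcn, called by DESeq2. Smooth muscle and pericyte markers summed to 897 to 1324 CPM in WT-CD, 1002 to 1540.3 in R403Q-CD, 815 to 1206 in R403Q-EMPA and 828 to 1109.9 in WT-EMPA. Below 0 lay 7 of 7 in R403Q-EMPA against R403Q-CD (median -0.71, 2 at an unadjusted p under 0.05; -0.33 without R403Q-CD replicate 5) and 7 of 7 in WT-EMPA against WT-CD (median -0.37, 1 at that level; -0.11 without WT-CD replicate 2), with 0 called by edgeR or DESeq2. Fat markers summed to at most 36.4 CPM, and the brown fat gene Ucp1, which defines a mitochondria-rich neighbor of the heart, to at most 0.104. Clock genes lay below 0 for 10 of 13 in WT-EMPA against WT-CD (median -0.28) and for 8 of 13 in R403Q-EMPA against R403Q-CD (-0.28), with 8 and 8 at an unadjusted p under 0.05, 0 past the edgeR threshold and 1 and 2 called by DESeq2. The part of these cell types and of the time of day in the levels of the complex I genes was not tested.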

How the data were processed

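RNA of left ventricles was sequenced by the study after poly(A) selection. The authors aligned read pairs to mm10 with STAR 2.6.0c, checked them with FastQC 0.11.7 and made the deposited counts with featureCounts (Subread 1.6.2) from uniquely aligned proper pairs, without mitochondrial genes. The authors also deposited log2 values, which are these counts after DESeq2 1.32.0's variance-stabilizing transformation. GENCODE M21 (GRCm38) named 55190 of 55450 gene IDs and gave positions and lengths.

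The tests ran in edgeR 4.0.16 (R 4.3.3). Genes passing filterByExpr (minimum count 10) entered 1 quasi-likelihood fit of the 4 groups after TMM scaling, with Benjamini-Hochberg adjustment over the 17309 genes kept and a threshold of 0.05. Log2 CPM used a prior count of 2. Group sizes and totals per mouse (23491535 to 43539684 counts) set the precision. Each mouse gave 1 library. Cages are those of the labels. The alternatives were DESeq2 1.42.0, limma 3.58.1 on the deposited log2 values, voom with sample quality weights, RLE scaling, library size alone, no filter, fits of 2 or 3 groups, cage as a factor within 1 diet and leaving out each mouse. Joining the counts of near-identical copies, found with blastn 2.17.0, was added after the data were seen. The scripts were tested on simulated data.

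The members and gene lists were chosen with earlier results of these data known. Values per mouse (for the 7 R403Q-CD mice, the range and median) are given for the 3 genes with the smallest p in each comparison and for 6 core subunits (1 of them without a cluster), for other members the extremes of each arm, and for other lists the genes past the edgeR threshold and, for some of them, that with the smallest p. Ndufc2, Ndufb6, Nppa and the pseudogenes were named outside the rule, after their values were seen.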

Additional observations from a re-analysis of the deposited data

Results flagged for a closer look

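Within groups of 4 to 10 mice, the highest or lowest value of the 14 genes given mouse by mouse, and of their common levels, was checked for a gap to its nearest neighbor that was wide for the group's range. Of 64 groups 3 met this, and chance alone gives about 1 in 20. R403Q-CD replicate 4 had the highest Ndufa11, 391 CPM, with the next mouse at 289. The same mouse had the highest Ndufb3, 251 CPM, with the next at 208. WT-CD replicate 2 had the lowest Ndufv1, 911 CPM, with the next at 995.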

How the results depend on the processing

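Under every alternative run, 0 of the 35 genes passed the threshold in any comparison or in the interaction, and the smallest adjusted p among them (edgeR unless an alternative test was named) ran from 0.081 to 0.284 in R403Q-CD against WT-CD, 0.25 to 0.635 in R403Q-EMPA against R403Q-CD, 0.138 to 0.709 in WT-EMPA against WT-CD, 0.0785 to 0.581 in R403Q-EMPA against WT-EMPA and 0.939 to 1 in the interaction. Leaving out each mouse in turn gave medians of the 35 genes from -0.11 to 0.03, -0.07 to 0.10, -0.21 to -0.14, 0.09 to 0.23 and 0.11 to 0.27 in the same order. In R403Q-CD against WT-CD the median turned positive with library size alone (0.02), sample quality weights (0.007) and without R403Q-CD replicate 2 (0.03). In R403Q-EMPA against R403Q-CD it turned negative with quality weights (-0.04) and without R403Q-CD replicate 2 (-0.05), R403Q-CD replicate 5 (-0.008) or R403Q-EMPA replicate 1 (-0.07). The cause was not tested. Counts over all genes moved more: 250, 2, 5 and 10 genes in the 4 comparisons became 19 to 1045, 0 to 145, 0 to 96 and 1 to 388. Library size alone moved the median of all genes in R403Q-CD against WT-CD from 0.01 to 0.08 and the calls from 153 higher and 97 lower to 274 and 78. With cage as a factor 19 genes passed there, in a fit of these 2 groups alone that called 28 without the factor. Low counts limit Ndufs5, with 53 in 1 mouse. No paired analysis was possible because replicate numbers in accession order are names only; cages, which the labels do give, entered as the factor above.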
